A study of Mus musculus with 9 samples.

Results

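Purkinje cells are the output neurons of the cerebellar cortex, and the 10 genes described here are those commonly used to recognise them and to tell apart their bands: Calb1, Pcp2, Pcp4, Car8, Itpr1, Ppp1r17, Rgs8, Aldoc, Plcb3 and Plcb4. They were taken by name, and each of the 10 had 1 row among 55808 rows of the deposited tables. The data are RNA-seq libraries of whole mouse cerebellum, 9 in all, with 3 in each of 3 groups. Saline was the treatment of the control group, 3-AP (3-acetylpyridine) that of the 3AP group, and 3-AP given after PLX3397 that of the PLX3AP group. The toxin 3-AP resembles nicotinamide and kills inferior olive neurons, whose climbing fibres end on Purkinje cells. PLX3397 blocks the CSF1 receptor that microglia need to survive. Strain, age, sex, dose and interval after injection are not in the labels, and PLX3397 without 3-AP was not analysed here. Whether the libraries of a group are from different animals is not stated, so the p-values measure the spread between these libraries, which may be technical.

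In a Purkinje cell, receptors that work through Gq proteins activate a phospholipase C of the beta class. The lipase makes inositol trisphosphate, which opens the receptor channel encoded by Itpr1 and lets calcium out of the endoplasmic reticulum. Purkinje cells also fall into parasagittal bands, or stripes. Cells of the zebrin-positive bands are rich in aldolase C, the zebrin II antigen encoded by Aldoc, and use phospholipase C beta 3 (Plcb3), whereas those of the zebrin-negative bands use phospholipase C beta 4 (Plcb4). Aldoc is also strongly expressed in astrocytes. In bulk tissue, fewer cells of a type and less RNA per cell cannot be told apart.

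None of the 10 genes differed between any of the 3 groups in the test across all genes. After 3-AP the fitted levels ran from 0.882 of control (Calb1) to 1.10 times control (Aldoc), with a median log2 fold change of -0.00 against 0.00 over all 16634 genes tested. EdgeR's quasi-likelihood test with Benjamini-Hochberg adjustment called 0 of the 10 in 3AP against control, where it called 4.93% of all genes tested. It called 0 of 10 in PLX3AP against 3AP (3.73% of all genes) and 0 of 10 in PLX3AP against control (0.120% of all genes). At an unadjusted p under 0.05 the counts were 0, 0 and 1 of 10, beside 17.0%, 12.1% and 9.35% of all genes. DESeq2 and limma-voom also called 0 of 10 in each comparison. A p that misses the threshold does not show equal levels, so the 95% intervals of the fit are given with each gene.

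The promoters of the 3 most abundant of these genes, Pcp2, Pcp4 and Aldoc, are shown because their transcripts stood far above the other 7 in every library. Each window runs from 250 bases before to 50 bases after a start given by RefSeq on GRCm38.p6, and the start nearest to the GENCODE end of the gene was used. Capitals mark the half-site AGGTCA, or its complement, which is bound by nuclear receptors such as RORA, a factor that Purkinje cells need to develop. The Pcp2 window is chr8:3625498-3625797 on the minus strand, the Pcp4 window chr16:96467356-96467655 on the plus strand and the Aldoc window chr11:78322823-78323122 on the plus strand.
Pcp2: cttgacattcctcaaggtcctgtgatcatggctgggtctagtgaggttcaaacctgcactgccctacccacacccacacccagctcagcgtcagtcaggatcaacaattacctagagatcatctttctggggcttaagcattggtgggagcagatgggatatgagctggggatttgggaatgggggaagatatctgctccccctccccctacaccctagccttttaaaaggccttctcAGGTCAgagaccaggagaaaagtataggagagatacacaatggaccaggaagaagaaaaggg
Pcp4: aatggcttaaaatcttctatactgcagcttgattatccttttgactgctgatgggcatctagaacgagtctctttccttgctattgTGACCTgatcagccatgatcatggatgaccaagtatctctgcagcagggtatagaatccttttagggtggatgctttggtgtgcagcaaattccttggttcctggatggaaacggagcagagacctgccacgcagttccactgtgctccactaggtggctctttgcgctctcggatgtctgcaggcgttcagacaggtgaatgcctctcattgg
Aldoc: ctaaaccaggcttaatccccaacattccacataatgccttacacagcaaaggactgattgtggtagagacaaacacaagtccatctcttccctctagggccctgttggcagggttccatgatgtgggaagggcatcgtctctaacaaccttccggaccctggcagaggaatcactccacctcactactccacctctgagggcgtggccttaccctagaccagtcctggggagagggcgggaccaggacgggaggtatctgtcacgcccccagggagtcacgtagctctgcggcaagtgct
The half-site lay 12 bases before the start in Pcp2, on the strand of the gene, and 164 bases before the start in Pcp4, on the opposite strand. These letters are not in the Aldoc window. Of 6 genes with a window in the table, 3 held the half-site in the window used (Pcp2, Pcp4 and Plcb3), as did 16.3% of all 32851 windows, searched on both strands. The Plcb3 start in that table lies 6656 bases inside the GENCODE gene, and that window is not printed. Calb1, Car8, Itpr1 and Ppp1r17 have no window there. A match is a description of the letters and does not show binding. The transcript of Rora itself was at 272 ± 30.3 CPM in control, 273 ± 9.32 in 3AP and 249 ± 35.2 in PLX3AP (mean ± SD, n = 3; CPM are counts scaled to library size).

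Levels of different genes are compared here in TPM, which are scaled to transcript length. In control, Pcp2 was at 2848 ± 213 TPM (mean ± SD, n = 3), Pcp4 at 2644 ± 15.6 and Aldoc at 2163 ± 148, at ranks 22, 25 and 31 of all named rows. The ranges of Pcp2 and Pcp4 overlapped, and Aldoc lay below both. Next came Calb1 at 833 ± 130, Car8 at 700 ± 92.2, Itpr1 at 556 ± 148 and Rgs8 at 450 ± 77.4 TPM, each overlapping its neighbour in the order. Ppp1r17 (284 ± 26.9), Plcb4 (155 ± 24.4) and Plcb3 (35.6 ± 1.76 TPM) were lower, with no overlap between neighbours. The order of the means was the same in all 3 groups. Together the 10 genes held on average 1.10% of all TPM, from 10220 to 11133 TPM in control, 9853 to 12056 in 3AP and 10467 to 12133 in PLX3AP. These ranges overlapped between each pair of groups.

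**Figure D1:**
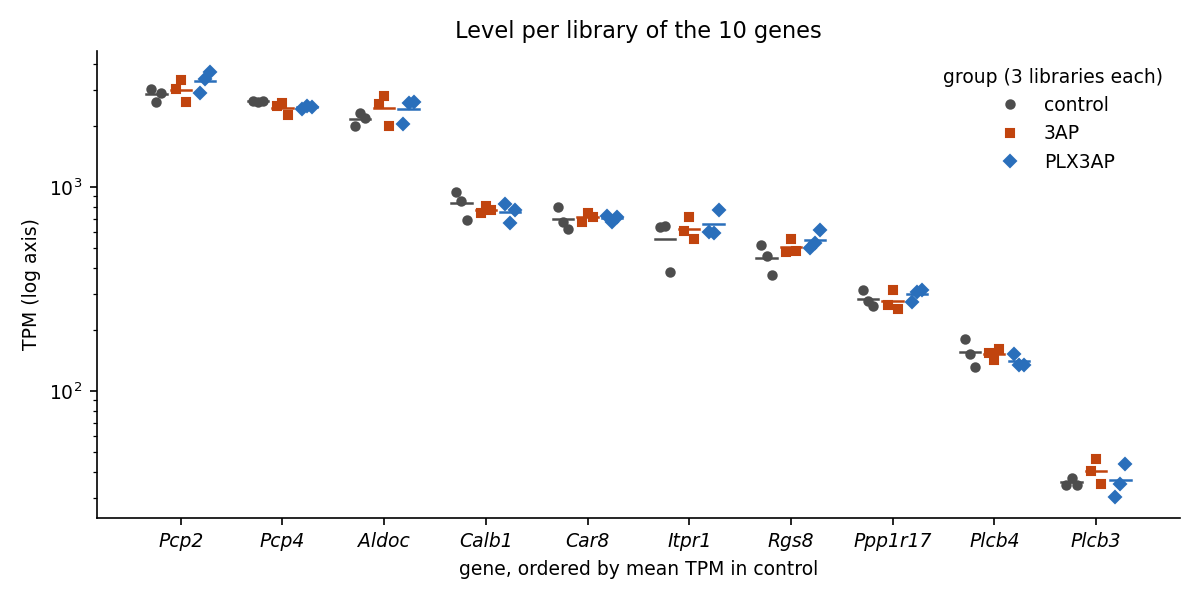
TPM of each of the 10 genes (log axis) in each library, with control as circles, 3AP as squares and PLX3AP as diamonds (replicates 1 to 3 from left to right) and a bar at each group mean. The genes span from Pcp2, at 2848 TPM on average in control, to Plcb3, at 35.6 TPM, and keep their order in every group.

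Among the genes that serve calcium and calmodulin, Calb1 encodes calbindin, a cytosolic calcium buffer, and lies on chromosome 4 from 15881264 to 15908064 (GRCm38, as all coordinates here). It was at 1367, 1225 and 1172 CPM in the control libraries, at 1094, 1094 and 1131 in 3AP, and at 1271, 1032 and 1023 in PLX3AP. All 3 of the 3AP libraries lay below all controls, while the first PLX3AP library lay within the control range. The log2 fold change was -0.18 in 3AP against control (SE 0.10, 95% interval -0.39 to 0.03, edgeR adjusted p 0.377) and -0.18 in PLX3AP against control (SE 0.10, -0.39 to 0.03, edgeR adjusted p 0.581). These comparisons share the control libraries. Between PLX3AP and 3AP it was 0.00 (SE 0.10, -0.21 to 0.21).

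Pcp4, on chromosome 16 from 96467606 to 96525793, encodes a small protein that binds calmodulin through an IQ motif and speeds its exchange of calcium. Its control libraries were at 615, 611 and 679 CPM. The 3AP libraries were at 592, 589 and 520 CPM, and the PLX3AP libraries at 581, 585 and 537. Every treated library thus lay below every control library, by a small margin. For Pcp4 the log2 fold change was -0.16 in 3AP against control (SE 0.08, -0.34 to 0.01, edgeR adjusted p 0.324) and -0.16 in PLX3AP against control (SE 0.08, -0.34 to 0.01, edgeR adjusted p 0.551), again with shared controls. The gene lies on the same strand within the annotated span of Igsf5, which was at no more than 0.926 CPM in any library.

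Calb1 and Pcp4 were the only 2 of the 10 whose 3AP and control libraries did not overlap, and both were lower in 3AP. The same held for 24.7% of all genes tested, so 2 of 10 is close to that background. In PLX3AP against control Pcp4 (lower) and Rgs8 (higher) did not overlap, 2 of 10 beside 14.3% of all genes. In PLX3AP against 3AP it was 0 of 10 beside 16.9%.

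Pcp2 encodes a protein with a GoLoco motif that binds inhibitory G alpha subunits, and its promoter is the one most used to drive transgenes in Purkinje cells. The gene spans chromosome 8 from 3623371 to 3625545 on the minus strand. It was at 448, 381 and 467 CPM in control, 456, 482 and 380 in 3AP and 438, 494 and 492 in PLX3AP. The lowest control library and the lowest 3AP library were nearly level, and all 3 groups overlapped. Its log2 fold change was 0.02 in 3AP against control (SE 0.10, -0.20 to 0.25) and 0.14 in PLX3AP against control (SE 0.10, -0.09 to 0.36). Pet100, on the other strand, covers the whole gene. With no strand setting stated, reads of the 2 genes cannot be told apart, but Pet100 was assigned at most 11.7 CPM in any library.

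**Figure D2:**
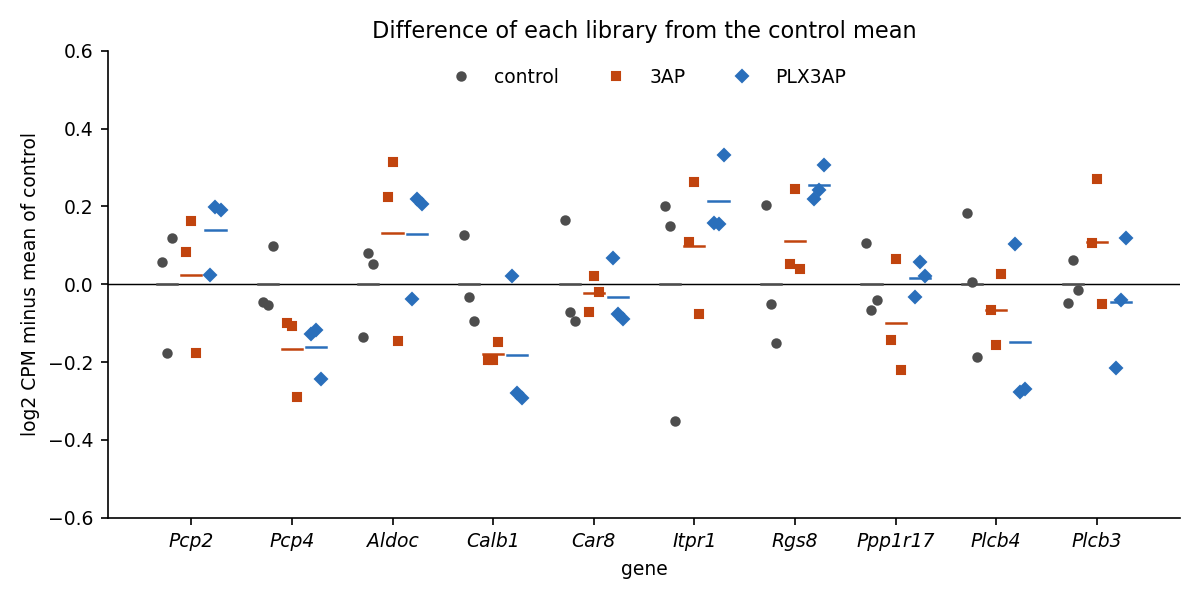
Difference in log2 CPM between each library and the mean of the 3 control libraries for each gene (circles control, squares 3AP, diamonds PLX3AP, replicates 1 to 3 from left to right, bars at the group means). All 6 treated libraries lie below the control libraries for Pcp4, and control replicate 3 stands low for Itpr1, at -0.35.

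Among the genes of inositol trisphosphate signalling, Itpr1, on chromosome 6 from 108213096 to 108551109, was at 3727, 3598 and 2545 CPM in control, 3495, 3894 and 3077 in 3AP and 3621, 3609 and 4082 in PLX3AP. Control replicate 3 was the lowest of the 9 libraries. The log2 fold change was 0.08 in 3AP against control (SE 0.14, -0.22 to 0.39, edgeR adjusted p 0.819) and 0.20 in PLX3AP against control (SE 0.14, -0.10 to 0.50, edgeR adjusted p 0.668). Without control replicate 3 the first became -0.07. That library also had the highest sum of choroid plexus markers, as given below, and the part of this in the Itpr1 value was not tested.

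Car8 encodes a carbonic anhydrase-related protein without enzyme activity that lowers the affinity of the Itpr1 receptor for its ligand, and it lies on chromosome 4 from 8143362 to 8239041. Car8 was at 1999, 1698 and 1670 CPM in control, 1696, 1811 and 1760 in 3AP, and 1868, 1690 and 1677 in PLX3AP. The groups overlapped throughout, with the first control library highest. Its log2 fold change was -0.03 in 3AP against control (SE 0.09, -0.22 to 0.17) and -0.01 in PLX3AP against 3AP (SE 0.09, -0.20 to 0.18).

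Rgs8, on chromosome 1 from 153653025 to 153700323, encodes a regulator that speeds the shutdown of G protein signals. It was at 1660, 1392 and 1298 CPM in control, 1496, 1708 and 1483 in 3AP, and 1678, 1704 and 1783 in PLX3AP. The PLX3AP libraries all lay above the controls, the lowest of them just above the highest control. The log2 fold change in PLX3AP against control was 0.25 (SE 0.10, 0.03 to 0.46), with an unadjusted p of 0.0267 and an edgeR adjusted p of 0.474. It was the 1 gene of the 10 with an unadjusted p under 0.05. Against control, 3AP gave 0.11 (SE 0.10, -0.11 to 0.32), and PLX3AP against 3AP 0.14 (SE 0.10, -0.07 to 0.35).

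Ppp1r17, on chromosome 6 from 56017497 to 56032689, encodes G-substrate, a target of cGMP-dependent protein kinase that inhibits protein phosphatases. It was at 293, 260 and 265 CPM in control, 246, 285 and 234 in 3AP, and 266, 283 and 277 in PLX3AP. The 3AP libraries held both its lowest value and one close to the highest. For Ppp1r17 the log2 fold change was -0.10 in 3AP against control (SE 0.08, -0.28 to 0.08) and 0.11 in PLX3AP against 3AP (SE 0.08, -0.07 to 0.29).

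**Figure D3:**
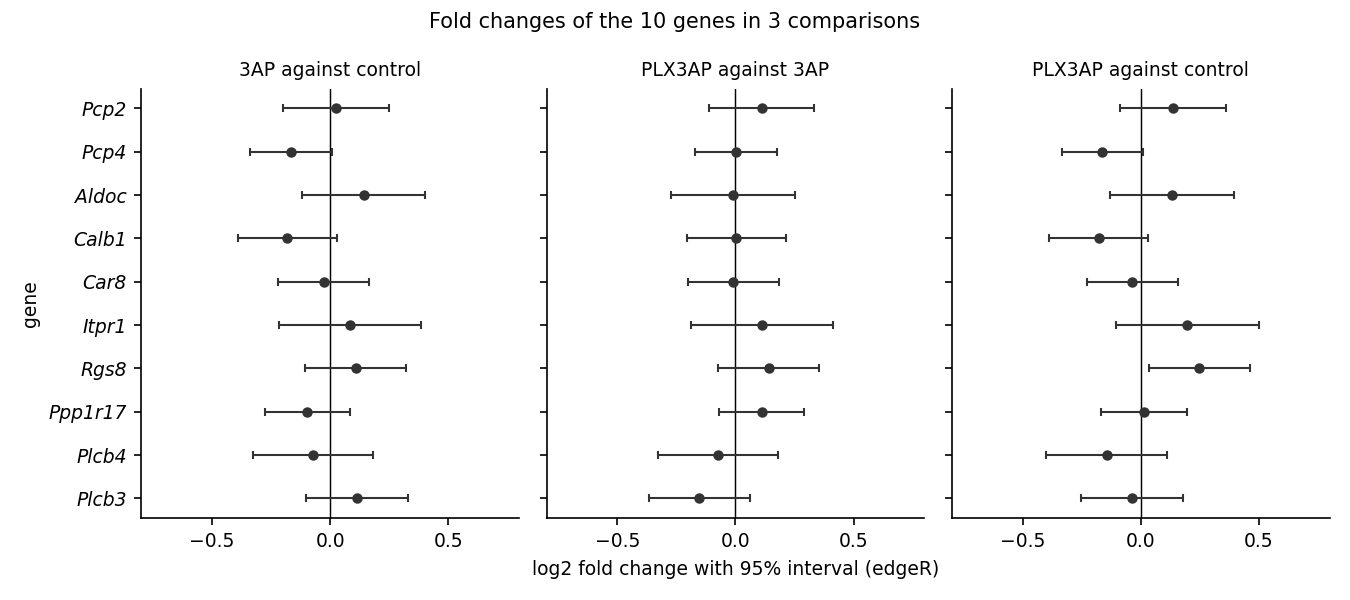
Log2 fold change of each gene with its 95% interval from the edgeR fit, in 3AP against control (left), PLX3AP against 3AP (middle) and PLX3AP against control (right). Every interval spans 0 except that of Rgs8 in PLX3AP against control, which runs from 0.03 to 0.46 before adjustment for the number of genes.

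The zebrin genes were compared because they mark opposite bands. Aldoc, on chromosome 11 from 78322968 to 78327781, was at 2222, 2580 and 2530 CPM in control, 2849, 3034 and 2204 in 3AP, and 2376, 2836 and 2816 in PLX3AP. The third 3AP library was the lowest of the 9 and the second the highest. For Aldoc the log2 fold change was 0.14 in 3AP against control (SE 0.12, -0.12 to 0.40, edgeR adjusted p 0.624) and -0.01 in PLX3AP against 3AP (SE 0.12, -0.27 to 0.25, edgeR adjusted p 0.983).

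Plcb3, on chromosome 19 from 6952325 to 6976470, was at 74.9, 80.8 and 76.7 CPM in control, 83.3, 93.5 and 74.8 in 3AP, and 66.8, 75.3 and 84.1 in PLX3AP. Plcb4, on chromosome 2 from 135659011 to 136014593, was at 379, 336 and 294 CPM in control, 319, 300 and 341 in 3AP, and 359, 276 and 277 in PLX3AP. Neither gene had groups that stood apart. In 3AP against control the log2 fold change was 0.11 for Plcb3 (SE 0.10, -0.10 to 0.33) and -0.07 for Plcb4 (SE 0.12, -0.33 to 0.18). In PLX3AP against 3AP it was -0.15 (SE 0.10, -0.37 to 0.06) and -0.07 (SE 0.12, -0.33 to 0.18). The start of Plcb3 overlaps Ppp1r14b on the other strand, which was at 9.61 to 18.2 CPM.

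Per transcript length, Plcb4 exceeded Plcb3 in each library, by 3.80 to 5.23 times in control, 3.05 to 4.60 in 3AP and 3.06 to 4.99 in PLX3AP. Aldoc exceeded Plcb4 by 11.1 to 16.6 times in control, 12.4 to 19.7 in 3AP and 13.5 to 19.5 in PLX3AP. These ratios of TPM overlapped between all groups, and libraries of one group spanned most of the range. No p is given for them, since the genes were chosen with results of these data known.

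Other genes known to mark the bands were set beside these from short lists. Of 5 genes of zebrin-positive bands, edgeR and limma-voom called 0 in each of the 3 comparisons, with 2, 0 and 1 at an unadjusted p under 0.05, and DESeq2 called 1 in 3AP against control. Slc1a6, the Purkinje glutamate transporter EAAT4, was at 177, 199 and 195 CPM in control, 147, 171 and 134 in 3AP and 143, 180 and 193 in PLX3AP. Its log2 fold change in 3AP against control was -0.34 (SE 0.12, -0.59 to -0.08), with an unadjusted p of 0.0132 and an edgeR adjusted p of 0.145, and the 3AP libraries did not reach the controls. Kctd12, an auxiliary subunit of GABA-B receptors, was at 258, 286 and 246 CPM in control, 209, 224 and 201 in 3AP and 215, 208 and 245 in PLX3AP. Its log2 fold change in 3AP against control was -0.32 (SE 0.08, -0.50 to -0.13), and the edgeR adjusted p of 0.0514 missed the threshold. Kctd12 was called in 6 of 19 alternatives: DESeq2 (adjusted p 0.0129), edgeR without a filter (0.0226), edgeR on the 2 groups alone (0.0426), and edgeR without control replicate 3 (0.0407), PLX3AP replicate 1 (0.0401) or PLX3AP replicate 3 (0.0421). Slc1a6 was called only in the edgeR fit without PLX3AP replicate 1 (0.0446). The other members, Gabbr2, Prkcd and Ncs1, had log2 fold changes of -0.03, -0.03 and 0.02 in that comparison. Of genes of zebrin-negative bands, Ebf2 had 0.03 and Map1a -0.01, and edgeR called neither in any comparison. Slc1a6 and Kctd12 are described in full because of their values.

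Levels of the 10 genes were also compared pair by pair over the libraries, and 0 of 45 pairs passed 0.05 after adjustment. Over the 9 libraries Calb1 and Plcb4 had a Pearson r of 0.89 (exact permutation p 0.00175, adjusted over 45 pairs 0.0786) and a Spearman rho of 0.85 (exact permutation p 0.00607, adjusted 0.0930). Without the 2 libraries farthest from the median of Calb1, control replicate 1 and PLX3AP replicate 1, r was 0.72. Aldoc and Plcb4, which mark opposite bands, had r of -0.77 (exact permutation p 0.0208, adjusted 0.163) and rho of -0.65 (exact permutation p 0.0666, adjusted 0.297), and r was -0.82 without 3AP replicates 2 and 3. Aldoc and Plcb3, which mark the same bands, had r of 0.73 (exact permutation p 0.0217, adjusted 0.163) and rho of 0.82 (exact permutation p 0.0108, adjusted 0.0969), and r was 0.64 without the same 2 libraries. Plcb3 and Plcb4, which also mark opposite bands, had r of -0.48 (exact permutation p 0.194, adjusted 0.512) and rho of -0.57 (exact permutation p 0.121, adjusted 0.319). Negative r was not limited to pairs of opposite bands. Aldoc had r of -0.73 with Calb1 (exact permutation p 0.028, adjusted 0.18) and -0.53 with Car8 (exact permutation p 0.138). Neither Calb1 nor Car8 is taken here as a band marker. With Pcp2, Pcp4, Itpr1, Ppp1r17 and Rgs8 the r of Aldoc ran from 0.05 to 0.63. Pcp2 with Plcb4 had r of -0.63 (exact permutation p 0.0709) and rho of -0.83 (exact permutation p 0.00827, adjusted 0.093). Car8 with Plcb4 had r of 0.77 (exact permutation p 0.0118, adjusted 0.163), and 0.34 without control replicate 1 and PLX3AP replicate 1. Calb1 with Car8 had r of 0.74 (exact permutation p 0.019, adjusted 0.163), and 0.03 without control replicate 1 and PLX3AP replicate 1. Itpr1 and Rgs8 had r of 0.83 (exact permutation p 0.00422, adjusted 0.0949) and rho of 0.88 (exact permutation p 0.00308, adjusted 0.0930), and r was 0.67 without control replicate 3 and 3AP replicate 3. After subtraction of the group means, r was 0.96 for Calb1 with Plcb4, -0.76 for Aldoc with Plcb4, 0.86 for Aldoc with Plcb3 and 0.81 for Itpr1 with Rgs8. Of the 45 pairs, 29 had a positive r and 16 a negative r. All values of a library share its total and scaling factor.

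**Figure D4:**
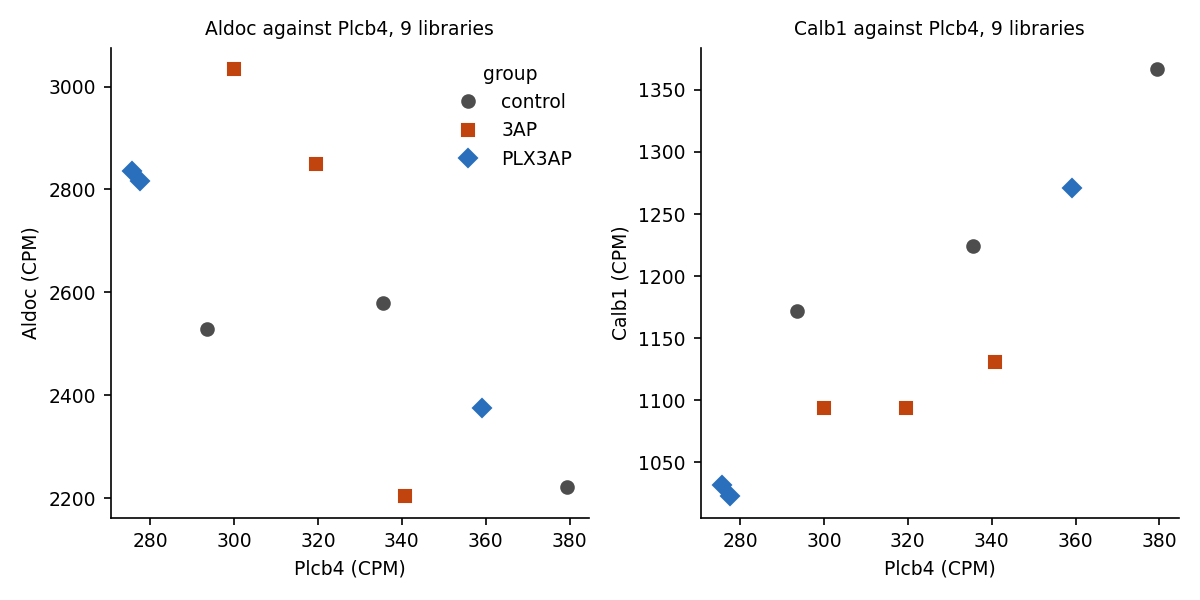
CPM of Aldoc (left) and Calb1 (right) against CPM of Plcb4, 1 point per library (circles control, squares 3AP, diamonds PLX3AP). The r is -0.77 for Aldoc (adjusted permutation p 0.163) and 0.89 for Calb1 (adjusted permutation p 0.0786), and neither passes 0.05 after adjustment over 45 pairs.

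For each library the log2 CPM of the 10 genes, each set against its own mean over the 9 libraries, were averaged. The 5 other genes that followed this average most closely of the 16634 tested were Brd1 (r of 0.93, rho of 0.92), Chrna6 (0.92 and 0.93), Rpl7a-ps11 (0.92 and 0.80), Zxdc (0.90 and 0.93) and Spata18 (0.90 and 0.88). They were taken as the highest of all, so no p is given. Chrna6, Rpl7a-ps11 and Spata18 were at under 1 CPM on average, where counting error is large.

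The other genes of the Purkinje cell and its signalling also stayed short of the threshold in edgeR, with 1 exception. Of 17 further Purkinje cell markers edgeR called 1 higher and 0 lower in 3AP against control, and 0 in each of the other comparisons (median log2 fold changes of -0.08, 0.06 and -0.00). In 3AP against control 11 of the 17 lay below 0. The gene called was Kcng4, a silent subunit that modifies voltage-gated potassium channels. It was at 182, 156 and 173 CPM in control, 230, 243 and 203 in 3AP, and 215, 247 and 227 in PLX3AP, so that all 6 treated libraries lay above the controls. The log2 fold change in 3AP against control was 0.40 (SE 0.09, 0.21 to 0.60, edgeR adjusted p 0.0189). The call was lost without control replicate 2 (0.0934), 3AP replicate 1 (0.0811) or 3AP replicate 2 (0.0903), and on TPM with a pseudocount of 0.1 (0.0545). In PLX3AP against control it was 0.43 (SE 0.09, 0.24 to 0.62, edgeR adjusted p 0.118), which DESeq2 called (0.00366).

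Of 27 genes of calcium signalling, which include the G protein subunits Gnaq and Gna11, the scaffold Homer3 and the calcium pump Atp2a2, edgeR called 0 in each comparison. At an unadjusted p under 0.05 it found 4 in 3AP against control, 1 in PLX3AP against 3AP and 2 in PLX3AP against control, and the medians were -0.11, 0.06 and 0.02. Limma-voom also called 0 in each comparison, and DESeq2 called 1, 0 and 1. In 3AP against control 20 of the 27 had a log2 fold change below 0, where the median over all genes tested was 0.00. The share of all genes below 0 is not given.

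Among relatives of the 10 genes, Calb2, Car2 and Itpr3 changed. Of 17 paralogs and isozymes edgeR called 1 higher and 2 lower in 3AP against control, and 2 higher in PLX3AP against 3AP. Calb2 encodes calretinin, which in the cerebellum is a marker of granule and unipolar brush cells rather than Purkinje cells. With 3-AP it fell from 500.4 ± 66.8 CPM to 353 ± 18.0 (a log2 difference of -0.50, SE 0.10, 3 libraries a group, edgeR adjusted p 0.0102) and was higher in PLX3AP, at 477 ± 42.7, than in 3AP (0.44, SE 0.10, edgeR adjusted p 0.0274). Car2, the active carbonic anhydrase of oligodendrocytes and choroid plexus, fell from 225 ± 12.9 to 174 ± 11.8 CPM (-0.37, SE 0.07, edgeR adjusted p 0.0110) and was at 228 ± 6.96 in PLX3AP (0.38 against 3AP, SE 0.07, edgeR adjusted p 0.00861). Itpr3, a receptor isoform found mainly outside neurons, rose from 16.5 ± 2.96 to 28.0 ± 0.928 CPM (0.77, SE 0.12, edgeR adjusted p 0.0024) and was at 25.8 ± 1.62 in PLX3AP. Against control PLX3AP gave 0.65 for Itpr3 (SE 0.12, no overlap, edgeR adjusted p 0.0871), which DESeq2 (0.00129) and edgeR without a filter (0.00165) called. Per transcript length Itpr3 was at 2.94 TPM in control, beside 556 for Itpr1. Without 3AP replicate 1 the calls of Calb2 and Car2 were lost in both comparisons (adjusted p of 0.0677 and 0.0623 against control, 0.172 and 0.0585 for PLX3AP against 3AP), and without 3AP replicate 2 that of Car2 against control (0.0651) and both calls of PLX3AP against 3AP (0.0962 and 0.0558). The call of Calb2 in PLX3AP against 3AP was also lost without control replicate 1 (0.0509), PLX3AP replicate 2 (0.126) or PLX3AP replicate 3 (0.130). In limma on log2(TPM + 1) the adjusted p in 3AP against control was 0.0780 for Calb2, 0.0756 for Car2 and 0.0505 for Itpr3, and in PLX3AP against 3AP it was 0.107 for Calb2.

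**Figure D5:**
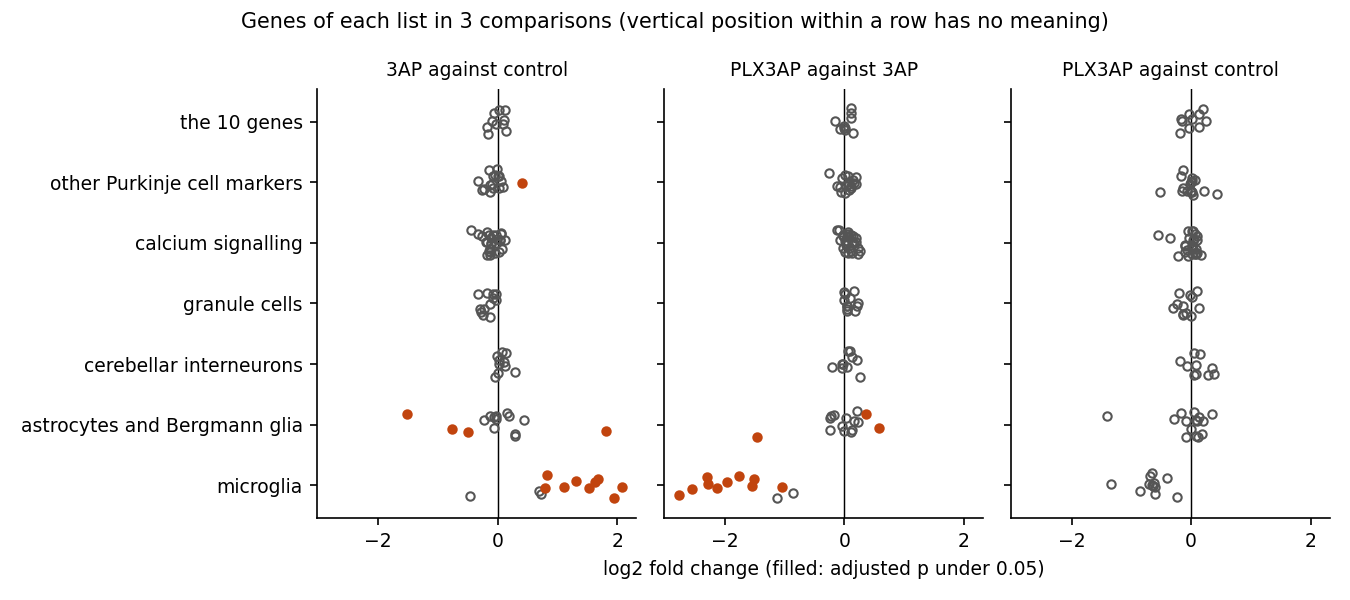
Log2 fold change of each tested gene of 7 lists in the 3 comparisons, filled where the edgeR adjusted p was under 0.05 and open where it was not. The 10 genes lie between -0.18 and 0.25 in all 3 panels, whereas 9 of 12 microglial markers are filled in 3AP against control and 10 of 12 in PLX3AP against 3AP.

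Markers of other cells give the setting of these values. Each library held 18452256 to 22358447 expected counts, and libraries of a group differed by more than sampling noise. Summed over 12 granule cell markers, the level was 3032 to 3262 TPM in control, 2652 to 3064 in 3AP and 3008 to 3173 in PLX3AP, with 0 of 12 called by edgeR and limma-voom in each comparison. At an unadjusted p under 0.05 there were 5, 1 and 2. All 12 lay below 0 in 3AP against control (median -0.16, beside 0.00 over all genes tested), and DESeq2 called 2 there. Microglial markers moved strongly: 12 genes summed to 236 to 246 TPM in control, 564 to 663 in 3AP and 128 to 222 in PLX3AP, with 9 called higher after 3-AP and 10 called lower in PLX3AP against 3AP. Among those with the smallest p in both comparisons were the protease gene Ctss (log2 fold changes of 1.30 and -1.96), the complement gene C1qa (1.63 and -2.29) and the integrin gene Itgam (2.08 and -2.78). P2ry12 was the 1 marker of the 12 with a log2 fold change below 0 in 3AP against control (-0.47), where edgeR did not call it. It was at 9.61 ± 1.68 CPM in control, 6.94 ± 1.86 in 3AP and 3.81 ± 1.29 in PLX3AP.

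Among 15 genes of astrocytes and Bergmann glia, which share Aldoc with Purkinje cells, 1 was called higher and 3 lower after 3-AP, and 2 higher and 1 lower in PLX3AP against 3AP. Their sums overlapped (3993 to 4315, 4086 to 4831 and 3929 to 4778 TPM). Hopx fell after 3-AP (log2 fold change -0.76, edgeR adjusted p 0.000312) and was higher in PLX3AP than in 3AP (0.59, 0.00207). Fabp7, a fatty acid binding protein gene of Bergmann glia, fell after 3-AP (-1.52, 0.00329), as did the water channel gene Aqp4 (-0.49, 0.0296), and Septin4 was higher in PLX3AP than in 3AP (0.36, 0.0211). Fabp7 was also low in PLX3AP against control (-1.40, SE 0.22, no overlap, edgeR adjusted p 0.0701). That result was called in 5 of 19 alternatives, among them DESeq2 (3.02e-08) and limma-voom (0.0248). Against 3AP, PLX3AP gave 0.12 for Fabp7 (SE 0.23, edgeR adjusted p 0.895). Gfap, the filament gene of reactive astrocytes, rose after 3-AP (1.82, 0.0128) and was lower in PLX3AP than in 3AP (-1.47, 0.0365). The calls of Gfap, Aqp4 and Septin4 did not hold throughout. That of Gfap after 3-AP was lost without control replicate 1, 2 or 3 (adjusted p of 0.0690, 0.0604 and 0.0536), and that in PLX3AP against 3AP without any single library but 3AP replicate 1 or 3 (0.0667 to 0.141). Aqp4 was lost without 3AP replicate 1, 2 or 3 (0.114, 0.137 and 0.0613) or control replicate 1 or 2 (0.142 and 0.119), and Septin4 without 3AP replicate 1, 2 or 3 (0.0956, 0.0615 and 0.0857) or PLX3AP replicate 2 or 3 (0.122 and 0.0850).

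Of 8 endothelial markers edgeR called 5 higher and 1 lower after 3-AP, and 1 higher and 4 lower in PLX3AP against 3AP. Those with the smallest p were Cldn5 (1.35 and -1.04 on the log2 scale), Pecam1 (1.26 and -1.07), Ly6c1 (1.04 and -1.08) and Itm2a (-1.05 and 0.72). Of 8 oligodendrocyte markers 1, Opalin, a myelin protein gene, was called lower after 3-AP (-0.96, edgeR adjusted p 0.00157) and higher in PLX3AP against 3AP (0.96, 0.0016). In PLX3AP against control edgeR called 0 genes of the microglial, astrocyte, endothelial and oligodendrocyte lists, with 10, 2, 2 and 0 at an unadjusted p under 0.05. There DESeq2 called 3, 1, 0 and 0, and limma-voom 0, 1, 0 and 0.

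Of 10 hindbrain and deep nucleus markers 5 were tested and edgeR and limma-voom called 0 in each comparison (1, 0 and 2 at an unadjusted p under 0.05; DESeq2 called 1, 0 and 1). The sums were 38.0 to 48.2 TPM in control, 56.4 to 71.9 in 3AP and 64.7 to 73.8 in PLX3AP, and without Th, the enzyme of catecholamine synthesis, they overlapped, at 29.5 to 37.2, 13.8 to 45.1 and 27.8 to 33.7 TPM. Th alone was at 8.55 to 10.9 TPM in control, 11.2 to 47.1 in 3AP and 37.0 to 41.5 in PLX3AP. Its log2 fold change was 1.58 in 3AP against control (SE 0.46, 0.51 to 2.65, no overlap, edgeR adjusted p 0.123). In PLX3AP against control it was 1.95 (SE 0.46, 0.88 to 3.02, no overlap, edgeR adjusted p 0.291). Which cells hold the Th transcript was not tested. The lowest of these sums, 13.8 TPM, was that of 3AP replicate 2. There Slc17a6 was at 8.89 TPM, beside 36.1 in 3AP replicate 1 and 40.8 in 3AP replicate 3. Several untested members were at 0 in single libraries. Of 10 interneuron markers and 8 choroid plexus markers edgeR, DESeq2 and limma-voom called 0 in each comparison, with 0, 1 and 2 interneuron and 1, 0 and 0 choroid plexus markers at an unadjusted p under 0.05. Choroid plexus markers varied within each group, from 199 to 6254 TPM in control, 1071 to 3393 in 3AP and 49.7 to 3345 in PLX3AP, with the maximum in control replicate 3. The part of any of these in the levels of the 10 genes was not tested.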

How the data were processed

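Bulk RNA sequencing of cerebellum gave 9 libraries in 3 groups of 3, grouped by their titles. Per the submitters' processing notes, fastp, HISAT2, StringTie and RSEM were used on the mm10 build. Their versions, the annotation release, strandedness and filters: not given in the sources used here. One deposited table per library has expected counts, which the authors estimated per gene and did not normalise. Another has TPM, which the authors scaled to length and library total.

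Rows without a name (0.526 to 0.660% of counts) were left out. Expected counts were rounded and tested in R 4.3.3 with edgeR 4.0.16 (filterByExpr, TMM factors of 0.986 to 1.02, quasi-likelihood fit with robust dispersion, 1 term per group, all 9 libraries). P-values are two-sided and adjusted over all 16634 genes tested, with calls under 0.05. CPM are TMM-scaled. Alternatives used DESeq2 1.42.0 and limma 3.58.1 (voom, and trend on log2(TPM + 1) or log2(TPM + 0.1)). The fit was tested on simulated data.

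The 10 genes and the 13 lists (146 genes, 139 tested) were chosen with earlier results of these data known. All 10 genes are described, in each list up to 4 called genes with the smallest p, and the 5 genes most correlated with the average of the 10. Some listed genes are not reported here by name. Genes outside this rule were chosen after their values were seen. Gene positions are from GENCODE M21 (GRCm38), promoters from RefSeq.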

Additional observations from a re-analysis of the deposited data

How the results depend on the processing

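EdgeR, DESeq2, limma-voom and limma-trend called 0 of the 10 genes under all 19 alternatives. The smallest adjusted p was 0.177 in 3AP against control, 0.244 for PLX3AP versus 3AP and 0.0837 for PLX3AP versus control, with smallest unadjusted p of 0.0239, 0.0328 and 0.00287. The sign of small log2 fold changes did turn. Values from TPM are given for a pseudocount of 1, of 0.1, and of 1 without a filter. In 3AP against control Car8 was 0.0326, 0.0326 and 0.0326 from TPM and 0.00873 with library totals only. For PLX3AP versus 3AP Calb1 was -0.0397, -0.0398 and -0.0397 from TPM, -0.0041 with limma-voom, -0.00215 without a filter, -0.0125 with library totals only, -0.00523 with the replicate block and -0.00762 on the 2 groups alone. Pcp4 was -0.00302 without a filter, -0.0129 with library totals only and -0.00919 on the 2 groups alone. For PLX3AP versus control Car8 was 0.0162, 0.0162 and 0.0162 and Plcb3 0.0181, 0.0182 and 0.0181 from TPM. There Ly6c1 was 0.0791, 0.0795 and 0.0791 from TPM, and Opalin -0.000472 without a filter and -0.00256 on the 2 groups alone.

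Leaving out 1 library at a time gave values on both sides of 0 in 3AP against control for Car8 (-0.0752 to 0.0618), Plcb4 (-0.161 to 0.0267), Pcp2 (-0.060 to 0.123) and Itpr1 (-0.0709 to 0.186). It did so for PLX3AP versus 3AP for Calb1 (-0.115 to 0.0566), Pcp4 (-0.0677 to 0.0391), Aldoc (-0.148 to 0.0791), Car8 (-0.0687 to 0.0175), Kcng4 (-0.0525 to 0.0815), Kctd12 (-0.00249 to 0.114) and Fabp7 (-0.119 to 0.329), and for PLX3AP versus control for Car8 (-0.0974 to 0.0442), Ppp1r17 (-0.0234 to 0.0619), Plcb3 (-0.129 to 0.031), Calb2 (-0.156 to 0.0391), Car2 (-0.0232 to 0.0636), Opalin (-0.0721 to 0.0567) and Ly6c1 (-0.114 to 0.0312). The cause was not tested.

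Counts over all genes moved more. In 3AP against control 820 genes became 482, 416 or 425 with limma-trend on TPM (pseudocount of 1, of 0.1, or no filter) and 466 (without 3AP replicate 1) to 991 without 1 library. Dropping control replicate 1 gave 487, dropping control replicate 2 gave 515 and dropping 3AP replicate 2 gave 504. In PLX3AP against 3AP 621 became 379, 325 or 347 on TPM and 401 (without 3AP replicate 1) to 715 without 1 library. In PLX3AP against control 20 became 5, 5 or 4 on TPM, 110 with DESeq2, 71 without a filter, and 7 (without PLX3AP replicate 2) to 153 (without PLX3AP replicate 1). Without control replicate 1, control replicate 2 or PLX3AP replicate 3 it was 8, 8 or 13. The replicate number as a block gave 580, 504 and 10 genes and 0 of the 10 in each comparison. The labels give same-numbered libraries nothing but the number in common. Correlations of their deviations from the group means ran from -0.203 to 0.0931, and those of differently numbered libraries from -0.112 to 0.232. With 3 libraries per group these values cannot show whether same-numbered libraries share a batch. With the block Kcng4 had an adjusted p of 0.0571 and Gfap of 0.0529 in 3AP against control, and Gfap had 0.119 and Septin4 0.0712 for PLX3AP versus 3AP. Small differences are limited by the spread between 3 libraries per group, since the 10 genes had ample counts.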
